A study of Mus musculus with 7 samples.

Results

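The 10 genes described here are regulators of the unfolded protein response (UPR) and the integrated stress response: Ern1, Xbp1 and Dnajb9 of the IRE1 branch, Eif2ak3, Atf4, Ddit3, Trib3 and Ppp1r15a of the PERK branch, and Atf6 and Herpud1 of the ATF6 branch. Dnajb9 was put with IRE1 and Herpud1 with ATF6, though both also respond to other branches. They were chosen by symbol among the 55401 genes of the deposited count table, and all 10 had enough counts to be among the 19199 genes tested. RNA was sequenced from microglia, the resident macrophages of the brain, which had been enriched with CD11b beads from the dorsal hippocampus of C57BL/6 mice aged 6 to 8 weeks. AAV-RAM-Cre, injected into the dorsal dentate gyrus of all mice, is a virus whose RAM promoter drives Cre in neurons activated by an experience. In the 4 control libraries (EYFP) it was combined with AAV-Dio-EYFP, and in the 3 others (ATG7) with AAV-Dio-Atg7-Flag, so that the Cre-dependent transgene was directed at engram neurons and not at the microglia sequenced. The comparison asked how hippocampal microglia differ when the neurons that hold a memory overexpress Atg7, an autophagy gene. The labels do not say whether a library is 1 mouse or a pool, so the p-values measure the spread between these libraries, which may be partly technical.

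The UPR is the answer of a cell to misfolded protein in the endoplasmic reticulum (ER). It has 3 sensors in the ER membrane. IRE1 cuts Xbp1 mRNA so that it is spliced into the form encoding an active transcription factor. PERK phosphorylates the translation factor eIF2alpha, which lowers general translation and raises that of ATF4, and ATF6 is carried to the Golgi and cleaved into a transcription factor. The integrated stress response shares the eIF2alpha step with kinases that sense viral RNA, amino acid shortage and haem shortage. In macrophages and microglia these branches are known to connect to inflammatory signalling. Gene counts add the unspliced and spliced forms of Xbp1, and they do not measure phosphorylation of PERK or eIF2alpha or cleavage of ATF6.

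Promoter windows are shown because they hold the response elements through which the branches act, and so that a target that did not pass the test and one that did can be set side by side. RefSeq windows (GRCm38.p6, 250 bases before to 50 after each start) matched 9 of the 10 regulators; Atf6 was not matched. The motifs ERSE, ERSE-II, UPRE and CARE were searched on both strands. They are the ER stress response element ERSE (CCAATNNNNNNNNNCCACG), ERSE-II (ATTGGNCCACG), the XBP1 element UPRE (TGACGTGG) and the C/EBP-ATF element CARE (TGATGNAA), through which ATF4 acts. ERSE was in 0.119% of 32851 windows, ERSE-II in 0.0365%, UPRE in 0.676% and CARE in 3.97%. Among the regulators only Herpud1 (ERSE-II and CARE) and Trib3 (CARE) held a match in this window. In the ATF6 list of chaperones and co-factors described further on, 10 of 12 genes had a window and 5 held an ERSE: Hspa5, Hsp90b1, Calr, Pdia6 and Creld2. Manf and Hyou1 had no window. An ERSE did not go with the calls gene by gene. Of the 5, Hspa5 and Creld2 passed the test and Hsp90b1, Calr and Pdia6 did not. Sdf2l1, which passed, held none of these motifs in its window. The 150 bases before the start are printed 5′ to 3′ with motif matches in capitals for Herpud1 (chr8:94386279-94386428, plus strand), which did not pass the test, and for Creld2 (chr15:88819496-88819645, plus strand), which did:
Herpud1: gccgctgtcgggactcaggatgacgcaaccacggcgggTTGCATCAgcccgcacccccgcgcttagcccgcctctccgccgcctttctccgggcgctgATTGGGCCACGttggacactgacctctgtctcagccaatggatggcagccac
Creld2: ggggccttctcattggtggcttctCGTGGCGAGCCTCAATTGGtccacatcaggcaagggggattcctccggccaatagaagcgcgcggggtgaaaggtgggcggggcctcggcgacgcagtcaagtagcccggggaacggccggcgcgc
The CARE match of Herpud1 lies on the minus strand from -112 to -105 of its RefSeq start and the ERSE-II match on the plus strand from -52 to -42. The ERSE of Creld2 is on the minus strand, from -126 to -108. That of Hspa5, from -65 to -47 on the plus strand, reads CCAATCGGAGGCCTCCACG. A match describes letters in the window and is not a measured binding site.

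Total counts ran from 35934210 to 55217119 per library. Microglial markers (10 genes, all detected) summed to 23804 to 28379 CPM (counts scaled to library size with factors from the trimmed mean of M values, TMM) in EYFP and to 23971 to 29187 in ATG7. Choroid plexus markers (8 genes, led by Ttr) were higher, at 54765 to 72257 CPM in EYFP and 46380 to 61104 in ATG7. Neuron markers summed to between 51.1 and 96.2 CPM, astrocyte markers to between 386.4 and 775.8, oligodendrocyte markers to between 235.7 and 565.9, endothelial and mural markers to between 399.4 and 945.3, and border and blood myeloid markers to between 439.8 and 605.3. In each of these lists the groups overlapped. Lymphocyte markers were low but did not overlap, at 7.98 to 13.0 CPM in EYFP and 13.7 to 25.9 in ATG7, with Cd3e, Cd3g and Cd79a each averaging under 1 CPM over the 7 libraries. Genes induced by tissue dissociation (18 genes) summed to 4452 to 6292 CPM in EYFP and 5432 to 5899 in ATG7. EYFP 3 stood apart in its sex-linked genes, with Xist at 937.97 CPM against at most 0.573 in the others and the Y-linked Ddx3y at 27.6 CPM against at least 121.1. The Y-linked genes Eif2s3y, Kdm5d and Uty were also detected in it, at 13.3, 8.09 and 7.38 CPM. Xist and Y-linked transcripts were thus present together, and whether this library mixes mice was not tested. Results are therefore also given without EYFP 3. In bulk RNA, fewer cells of a type and less RNA per cell cannot be told apart.

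None of the 10 regulators passed the test between ATG7 and EYFP (0 called, against 0.755% of all genes tested, by edgeR's quasi-likelihood F-test at a Benjamini-Hochberg threshold of 0.05). None had an unadjusted p under 0.05, against 2300 of all 19199 genes tested, and the adjusted p ran from 0.611 to 0.952. The DESeq2 Wald test and limma-voom also called 0 of the 10, with 0 at an unadjusted p under 0.05. That unadjusted count was 1 with the choroid plexus covariate, with the replicate block and without EYFP 4. Without EYFP 3, 0 were called and the log2 fold changes lay between -0.02 and 0.16. The groups overlapped in each of the 10 genes, while 11.2% of all genes tested did not overlap. The median log2 fold change was 0.03 over the regulators and -0.0037 over all genes tested, and the median standard error (SE) was 0.0780 and 0.135. For the 9 genes other than Trib3, the 95% confidence intervals of the fold between ATG7 and EYFP lay within 0.862 (Dnajb9) and 1.27 (Ppp1r15a).

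**Figure D1:**
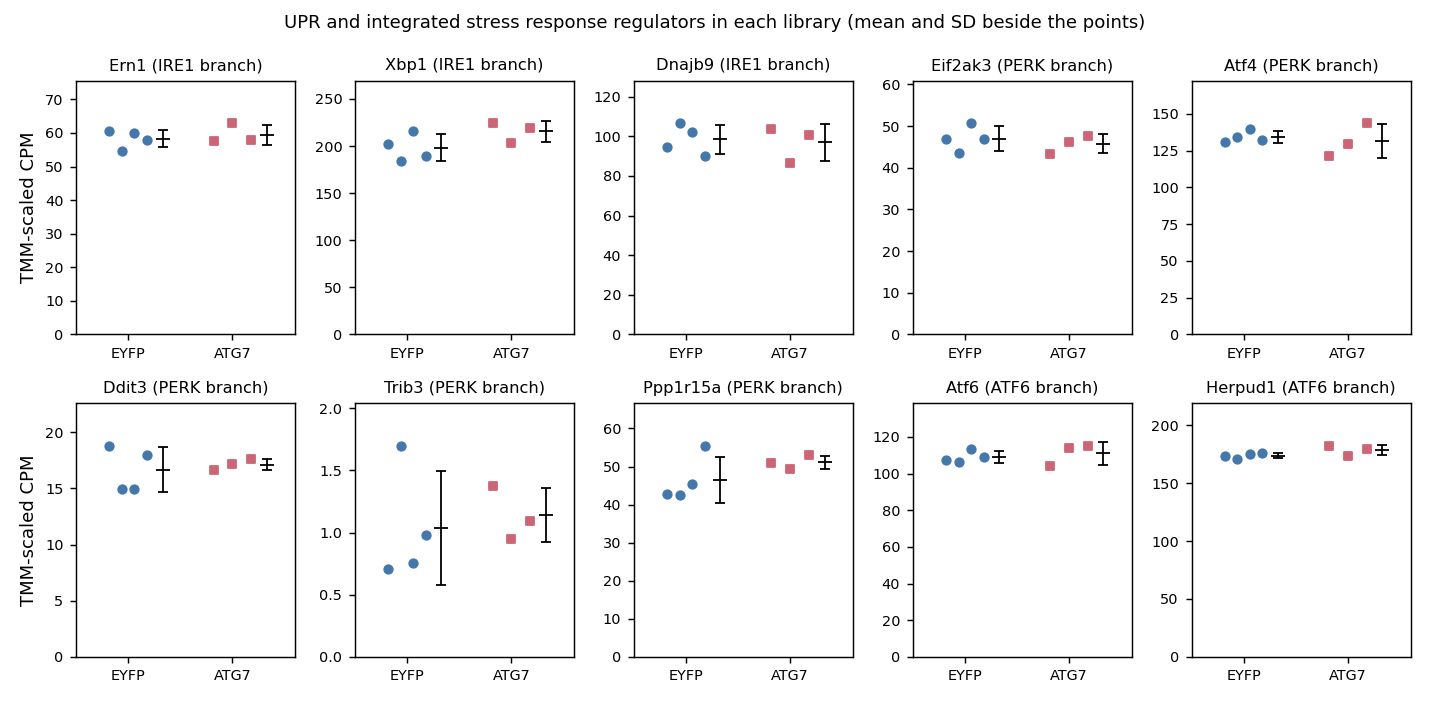
TMM-scaled CPM (vertical axes, from 0) of the 10 regulators in the 4 EYFP libraries (blue circles) and the 3 ATG7 libraries (red squares), with the group mean and SD beside the points. The groups overlap in every panel, and Trib3, at 0.710 to 1.70 CPM, has the widest spread for its level.

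Ern1, the gene of the IRE1 kinase and ribonuclease (ENSMUSG00000020715, chromosome 11, 106394650 to 106487852, GRCm38), was at 60.6, 54.8, 59.9 and 57.9 CPM in EYFP 1 to 4 and at 57.6, 62.9 and 57.8 CPM in ATG7 1 to 3. The highest of the 7 values was ATG7 2 and the lowest EYFP 2. The difference of ATG7 from EYFP was 0.03 on the log2 scale (SE 0.0679, 95% interval -0.12 to 0.18, edgeR adjusted p = 0.919).

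Xbp1, whose spliced form encodes the transcription factor of this branch (ENSMUSG00000020484, chromosome 11, 5520659 to 5525893), was at 202.6, 184.4, 216.2 and 189.5 CPM in EYFP and at 224.2, 203.2 and 219.6 CPM in ATG7. ATG7 1 and 3 were above every EYFP library, and ATG7 2 lay among them. With a log2 fold change of 0.12 and an SE of 0.0802 (95% interval -0.05 to 0.30) it had the smallest p of the 10, but did not pass (edgeR adjusted p = 0.611; exact permutation p = 0.114, two-sided). Dnajb9, an ER co-chaperone of BiP that is induced by XBP1 and holds IRE1 inactive (ENSMUSG00000014905, chromosome 12, 44205559 to 44210326), was at 94.5, 106.5, 102.3 and 90.3 CPM in EYFP and 103.8, 86.3 and 100.6 CPM in ATG7. The lowest of the 7 values was ATG7 2 and the highest EYFP 2. For Dnajb9, the difference of ATG7 from EYFP was -0.02 on the log2 scale (SE 0.0867, 95% interval -0.21 to 0.17, edgeR adjusted p = 0.952).

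The ratio of Dnajb9 to Xbp1 counts within a library was 0.467, 0.578, 0.473 and 0.476 in EYFP and 0.463, 0.424 and 0.458 in ATG7. Every ATG7 value was below every EYFP value, by a narrow margin against EYFP 1. The difference did not pass (exact permutation p = 0.0857, two-sided; 0.137 after Benjamini-Hochberg adjustment over 16 ratios examined), and the ratio was chosen with the values known. The 16 include the ratios of Hspa5 to each regulator, picked with the rise of Hspa5 known. Most of those had a small p, which makes the adjustment more lenient for the other ratios.

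Eif2ak3, the gene of PERK (ENSMUSG00000031668, chromosome 6, 70844515 to 70905245), was at 46.8, 43.4, 50.7 and 46.9 CPM in EYFP and 43.2, 46.2 and 47.7 CPM in ATG7. All 3 ATG7 values were below that of EYFP 3, and they otherwise mixed with the controls. For Eif2ak3, the difference of ATG7 from EYFP was -0.04 on the log2 scale (SE 0.0740, 95% interval -0.20 to 0.13, edgeR adjusted p = 0.895). Its exons share 485 bases with an antisense transcript, Gm43292, and the strand setting of the counting is not stated.

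Atf4, the transcription factor whose translation rises when eIF2alpha is phosphorylated (ENSMUSG00000042406, chromosome 15, 80255184 to 80257541), was at 131.0, 134.5, 139.9 and 132.1 CPM in EYFP and 121.1, 129.5 and 143.7 CPM in ATG7. The lowest and the highest value were both from ATG7. The difference of ATG7 from EYFP was -0.03 on the log2 scale (SE 0.0758, 95% interval -0.20 to 0.14, edgeR adjusted p = 0.919). The transcript level does not measure ATF4 translation.

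Ddit3, which encodes the pro-apoptotic factor CHOP (ENSMUSG00000025408, chromosome 10, 127290774 to 127296288), was at 18.8, 14.99, 14.9 and 17.95 CPM in EYFP and 16.7, 17.2 and 17.6 CPM in ATG7. The 3 ATG7 values fell inside the gap between the EYFP pairs. For Ddit3, the difference of ATG7 from EYFP was 0.04 on the log2 scale (SE 0.105, 95% interval -0.19 to 0.27, edgeR adjusted p = 0.925). A second identifier with the same symbol, ENSMUSG00000116429, was at 0 in every library; its 105 exon bases all lie within exons of the first, and how the authors' counting treated shared bases is not stated. Within a library, the ratio of Ddit3 to Atf4 counts averaged 0.124 ± 0.0181 over the 4 EYFP libraries and 0.131 ± 0.00769 over the 3 ATG7 libraries (mean ± SD, exact permutation p = 0.514, two-sided; 0.588 after adjustment over 16).

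Trib3, a pseudokinase induced by ATF4 and CHOP that restrains them (ENSMUSG00000032715, chromosome 2, 152337422 to 152344032), rested on 26 to 78 counts per library. It was at 0.710, 1.70, 0.753 and 0.981 CPM in EYFP and 1.37, 0.946 and 1.10 CPM in ATG7. EYFP 1 and 3 were lowest and EYFP 2 highest. The log2 fold change of 0.12 had an SE of 0.332 and a 95% interval from -0.61 to 0.85 (edgeR adjusted p = 0.928), an interval that includes 1.5-fold differences either way. Without EYFP 2 the log2 fold change was 0.47 (edgeR adjusted p = 0.672), and without EYFP 3 it was -0.01 (0.995).

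Ppp1r15a, whose product GADD34 directs a phosphatase to eIF2alpha and so ends the response (ENSMUSG00000040435, chromosome 7, 45522916 to 45526268), was at 42.7, 42.6, 45.3 and 55.5 CPM in EYFP and 50.9, 49.4 and 52.9 CPM in ATG7. EYFP 4 was the highest of the 7, and the 3 ATG7 libraries were above EYFP 1 to 3. For Ppp1r15a, the difference of ATG7 from EYFP was 0.13 on the log2 scale (SE 0.0952, 95% interval -0.08 to 0.34, edgeR adjusted p = 0.647; exact permutation p = 0.229, two-sided). The dissociation genes were also highest in EYFP 4, at 6292 CPM, and lowest in EYFP 2, at 4452 CPM. With their mean level as a covariate the log2 fold change of Ppp1r15a was 0.013, and without EYFP 4 it was 0.23 (edgeR adjusted p = 0.985 and 0.377). In EYFP 3 the dissociation genes were at 5592 CPM and Ppp1r15a at 45.3 CPM. Whether dissociation plays a part was not tested.

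Atf6, the sensor that becomes a transcription factor (ENSMUSG00000026663, chromosome 1, 170704674 to 170867771), was at 107.6, 106.3, 113.3 and 109.3 CPM in EYFP and 104.0, 114.2 and 115.2 CPM in ATG7. ATG7 held both the lowest and the 2 highest values. The difference of ATG7 from EYFP was 0.03 on the log2 scale (SE 0.0679, 95% interval -0.12 to 0.18, edgeR adjusted p = 0.924).

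Herpud1, an ER membrane protein of the degradation machinery (ENSMUSG00000031770, chromosome 8, 94386438 to 94395377), was at 173.8, 171.1, 174.9 and 175.7 CPM in EYFP and 182.4, 173.7 and 179.7 CPM in ATG7. ATG7 1 and 3 were above the controls and ATG7 2 was inside their range. It varied least of the 10, with a coefficient of variation over all libraries of 2.20%, against 10.4% for Ppp1r15a and 32.6% for Trib3. For Herpud1, the difference of ATG7 from EYFP was 0.04 on the log2 scale (SE 0.0650, 95% interval -0.10 to 0.18, edgeR adjusted p = 0.874). Its promoter is the one printed above with an ERSE-II and a CARE match.

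Levels between genes were compared per kilobase of annotated exon, averaged over EYFP. Herpud1 was highest at 74.5 ± 0.859 CPM per kilobase (SD, n = 4), followed by Xbp1 at 61.0 ± 4.40, Atf4 at 57.0 ± 1.69, Dnajb9 at 38.6 ± 2.88, Ppp1r15a at 15.8 ± 2.08, Atf6 at 11.8 ± 0.329, Ddit3 at 9.73 ± 1.17, Eif2ak3 at 7.79 ± 0.491, Ern1 at 7.13 ± 0.320 and Trib3 at 0.488 ± 0.216. The ranges over all 7 libraries overlapped for 2 neighbouring pairs in this order, Xbp1 with Atf4 and Eif2ak3 with Ern1. The other neighbours were separate in every library. The 3 sensor genes thus lay below the transcription factors Xbp1 and Atf4, the targets Herpud1 and Dnajb9, and Ppp1r15a. Ddit3 lay between Atf6 and Eif2ak3, and Trib3 was lowest.

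The branches were set side by side as the mean log2 difference of their regulators from the EYFP mean. For IRE1 it ran from -0.06 to 0.08 in the EYFP libraries and from -0.01 to 0.08 in the ATG7 libraries. For PERK it ran from -0.08 to 0.08 and from 0.0061 to 0.11, and for ATF6 from -0.03 to 0.03 and from 0.00032 to 0.06. The groups overlapped in all 3 branches. The PERK mean rests in part on Trib3, which had 26 to 78 counts per library. In EYFP 2 this mean was 0.08, with Trib3 at 1.70 CPM against an EYFP mean of 1.04. There Eif2ak3 (43.4 against 47.0), Ddit3 (14.99 against 16.7) and Ppp1r15a (42.6 against 46.5) were below their EYFP means. Atf4 was level with its own (134.5 against 134.4). The ratios between the sensor genes gave no difference that passed: Eif2ak3 to Ern1 averaged 0.805 ± 0.0317 over the 4 EYFP libraries and 0.771 ± 0.0480 over the 3 ATG7 libraries (mean ± SD, exact permutation p = 0.257, two-sided, 0.343 adjusted over 16), Atf6 to Ern1 was 1.87 ± 0.0702 and 1.87 ± 0.105, and Atf6 to Eif2ak3 was 2.33 ± 0.0886 and 2.43 ± 0.0349 (exact permutation p = 0.114, 0.166 adjusted).

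Around the regulators, 73 other genes of the pathway were counted in 4 lists, all of them tested. Of these, 6 rose and 0 fell (edgeR adjusted p under 0.05, higher in ATG7 in 0.688% of all genes tested), and their median log2 fold change was 0.06. An unadjusted p under 0.05 was reached by 19 of the 73, against 2300 of all 19199 genes tested. The 16 genes of the IRE1-XBP1 list (translocation, glycoprotein disposal and co-chaperones) had 0 called and 1 at an unadjusted p under 0.05, with a median of 0.06. That gene, Dnajb11, an ER co-chaperone, averaged 117.6 ± 4.70 CPM across the 4 EYFP libraries and 146.1 ± 13.8 CPM across the 3 of ATG7 (mean ± SD), a log2 difference of 0.31 (SE 0.0792, edgeR adjusted p = 0.123). Edem1, Sec61a1 and Sec24d, known XBP1 targets picked after their values were seen, had log2 fold changes of -0.03, 0.05 and -0.09. They do not stand for the list, in which 11 of the 16 log2 fold changes were positive and 5 negative, from -0.09 to 0.31. In the list for degradation of ER proteins (ERAD, 13 genes) 0 were called and 3 had an unadjusted p under 0.05, with a median of 0.05. The smallest p there was that of Derl3, a channel component of this machinery, at 1.23, 1.42, 0.909 and 1.08 CPM in EYFP and 4.37, 1.42 and 2.15 CPM in ATG7 (log2 fold change 1.18, SE 0.348, edgeR adjusted p = 0.183). ATG7 1 was highest, and without it the log2 fold change was 0.62 (edgeR adjusted p = 0.480).

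In the list of the PERK branch and the integrated stress response, 1 of 32 genes rose and 0 fell, with a median of 0.03 and 6 at an unadjusted p under 0.05. The riser was Eif2ak2, the kinase PKR, which phosphorylates eIF2alpha on sensing double-stranded RNA and is itself interferon-induced (chromosome 17, 78852564 to 78882573). It was at 70.5, 60.1, 54.1 and 57.4 CPM in EYFP and 85.9, 99.0 and 86.8 CPM in ATG7, so the groups were separate. The difference of ATG7 from EYFP was 0.58 on the log2 scale (SE 0.0945, edgeR adjusted p = 0.0206, and 0.0369 without EYFP 3). The call was lost without EYFP 4, ATG7 2 or ATG7 3 (edgeR adjusted p = 0.0808, 0.103 and 0.0942) and with the choroid plexus covariate (0.157), at log2 fold changes of 0.56, 0.51, 0.61 and 0.50. The other eIF2alpha kinases did not pass: Eif2ak1 was at 55.3 ± 1.53 and 59.0 ± 1.38 CPM and Eif2ak4 at 42.0 ± 2.01 and 42.7 ± 3.20 CPM (SD, n = 4 and n = 3). The others at an unadjusted p under 0.05 were Cebpb, Nupr1, Shmt2 and Wars, with positive log2 fold changes of 0.77, 0.35, 0.22 and 0.16, and Vldlr, at -0.25. Cebpb, a transcription factor of inflammation and of the ATF4 network, averaged 10.5 ± 0.726 CPM over the 4 EYFP libraries and 17.995 ± 5.27 CPM over the 3 ATG7 libraries (mean ± SD), with a log2 fold change of 0.77 that missed the threshold (SE 0.167, edgeR adjusted p = 0.0735). It passed with no filter on low counts (0.0184), with DESeq2 (0.00174) and without ATG7 3 (0.0423), and in none of the other alternatives. Its level in ATG7 1 to 3 was 23.4, 17.7 and 12.9 CPM. Without ATG7 1 the log2 fold change of Cebpb was 0.54 (edgeR adjusted p = 0.176). The limma-voom adjusted p was 0.118.

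In the ATF6 list 5 of 12 genes rose and 0 fell, and the median log2 fold change was 0.46. An unadjusted p under 0.05 was reached by 9, against 2300 of all 19199 genes tested. Earlier results on these libraries were known when the list was written, so its direction is not independent evidence. The name of the list does not exclude other branches, and which branch acted on its genes was not tested. The upstream genes of the list, Atf6b, a relative of Atf6, and the proteases Mbtps1 and Mbtps2 that cleave ATF6, had log2 fold changes of 0.13, -0.0041 and -0.11 and did not pass. The 3 with the smallest p were Sdf2l1, a component of an ER chaperone complex, Hyou1, an ER chaperone of the Hsp110 kind, and Manf, an ER-retained stress factor. Sdf2l1 was at 59.98, 63.5, 61.4 and 54.4 CPM in EYFP and 106.6, 82.3 and 94.97 CPM in ATG7 (log2 fold change 0.66, SE 0.0915, edgeR adjusted p = 0.0113). Hyou1 was at 152.5, 144.3, 148.8 and 145.3 CPM in EYFP and 232.5, 200.4 and 189.9 CPM in ATG7 (0.49, SE 0.0814, edgeR adjusted p = 0.0210). In both genes each ATG7 library was above each EYFP library. Manf was at 94.0, 98.2, 96.6 and 88.3 CPM in EYFP and 176.2, 124.2 and 132.4 CPM in ATG7 (0.61, SE 0.110, edgeR adjusted p = 0.0295).

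Hspa5, the gene of the ER chaperone BiP that restrains all 3 sensors, rose from 911.6 ± 30.2 to 1347.5 ± 198.6 CPM (mean ± SD of 4 EYFP and 3 ATG7 libraries), and Creld2, an ER-resident disulfide isomerase, from 48.9 ± 3.14 to 68.98 ± 9.98 CPM (edgeR adjusted p = 0.0320 and 0.0420). The Creld2 call was lost with library size alone, upper quartile scaling and a mean CPM of at least 1 (edgeR adjusted p = 0.0738, 0.0534 and 0.0535). Its log2 fold changes there were 0.48, 0.49 and 0.49. Calr, the ER chaperone calreticulin, missed the threshold at 861.2 ± 45.6 and 1199 ± 126.5 CPM (edgeR adjusted p = 0.05001), and passed with no filter (0.00432), a mean CPM of at least 1 (0.0496), DESeq2 (5.67e-05) and limma-voom (0.0307). Calr did not pass with any 1 library left out (edgeR adjusted p from 0.0645 to 0.263). Nor did it pass with the choroid plexus covariate (0.136), the dissociation covariate (0.144) or the replicate block (0.504). It, Hspa5 and Creld2 were singled out after their values were seen. ATG7 1 was the highest library in all 5 genes. Without ATG7 1 the log2 fold changes were smaller, at 0.57 for Sdf2l1, 0.45 for Manf, 0.44 for Hspa5, 0.40 for Hyou1 and 0.37 for Creld2. Hspa5, Hyou1 and Creld2 then did not pass (edgeR adjusted p = 0.0655, 0.0517 and 0.0960). Choroid plexus markers overlapped between the groups, and with their mean level as a covariate 1 of the 73 genes, Sdf2l1, passed (edgeR adjusted p = 0.0496). With and without that covariate the log2 fold changes were 0.73 and 0.66 for Sdf2l1, 0.51 and 0.49 for Hyou1, 0.71 and 0.61 for Manf. They were 0.62 and 0.56 for Hspa5, 0.50 and 0.50 for Creld2, and 0.50 and 0.58 for Eif2ak2. Whether choroid plexus content plays a part was not tested. Of the 6 genes, 3 were called without EYFP 2, EYFP 3 or ATG7 1, and 2 (Manf and Sdf2l1) without ATG7 2. Without EYFP 4 or without ATG7 3, 0 of the 6 were called, and Cebpb passed without ATG7 3. Without EYFP 3 the edgeR adjusted p was 0.0598 for Hspa5, 0.0618 for Manf and 0.0869 for Creld2, with log2 fold changes of 0.58, 0.62 and 0.50.

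**Figure D2:**
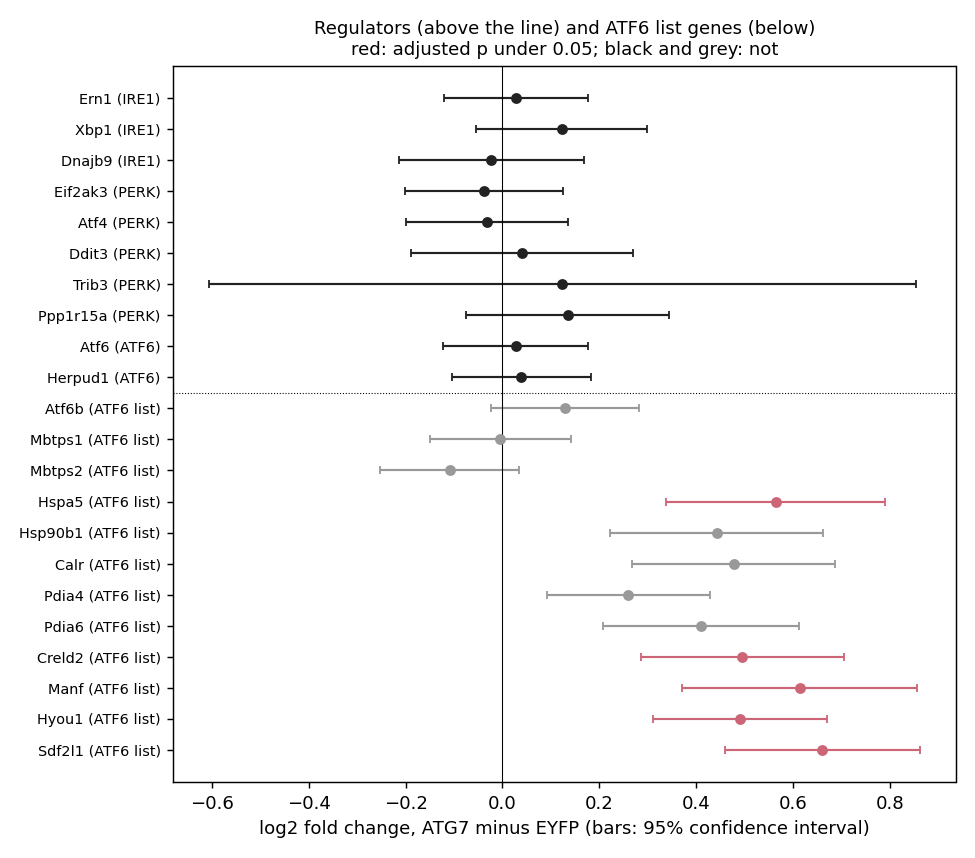
Log2 fold change of ATG7 over EYFP (horizontal axis) with 95% confidence intervals for the 10 regulators (above the dotted line, branch in parentheses) and the 12 genes of the ATF6 list (below); red marks an edgeR adjusted p under 0.05. The regulators, Herpud1 included, lie between -0.04 and 0.13, and the 5 red genes between 0.49 and 0.66.

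**Figure D3:**
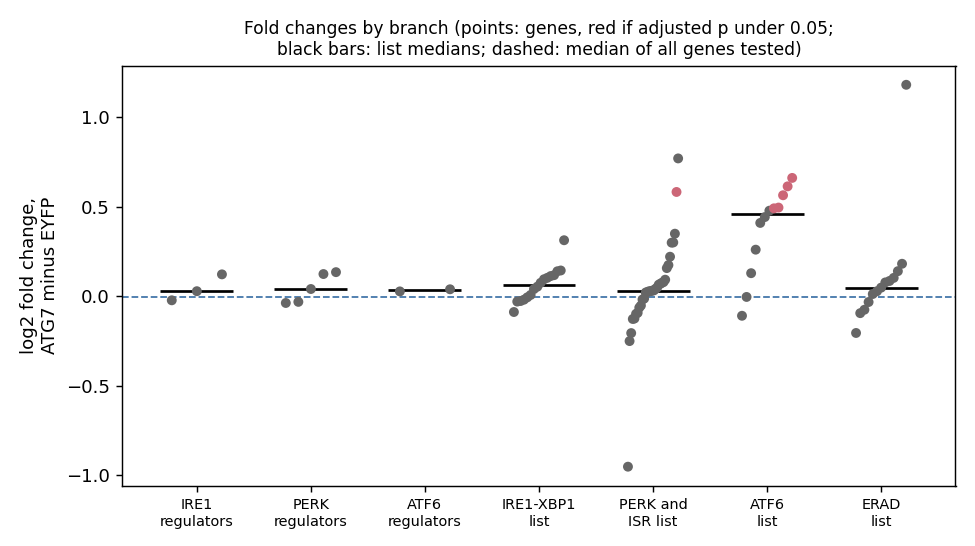
Log2 fold changes of ATG7 over EYFP (vertical axis) for each regulator and pathway gene, grouped by branch; black bars are list medians, the dashed line is the median of all genes tested, and red marks an edgeR adjusted p under 0.05. The ATF6 list has a median of 0.46, and the other 3 lists and the 3 regulator groups have medians between 0.03 and 0.06. Which branch acted on a gene was not tested.

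Hspa5 was set against each regulator by the ratio of their counts within a library. Hspa5 was picked out with its rise known, so the ratios restate that rise beside the regulators' levels. The ratio of Hspa5 to Herpud1 was 5.25, 5.34, 5.41 and 4.97 in EYFP and 8.60, 6.84 and 7.15 in ATG7, or 1.43-fold higher in ATG7. For 9 of the 10 regulators every ATG7 ratio was above every EYFP ratio, with a fold of 1.33 (Ppp1r15a) to 1.51 (Eif2ak3). Each of the 9 had the smallest p that 4 against 3 libraries allow (exact permutation p = 0.0286, two-sided), which was 0.0508 after adjustment over the 16 ratios. Since that smallest p is set by the number of libraries, missing the threshold says nothing about the size of the difference. For Trib3 the groups overlapped (1.27-fold, exact permutation p = 0.457).

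**Figure D4:**
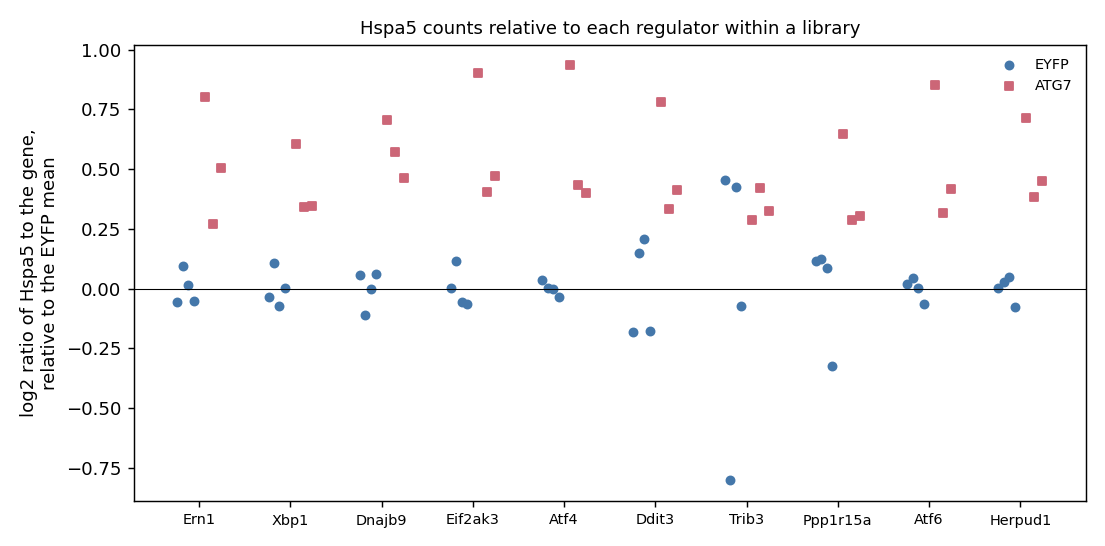
Log2 ratio of Hspa5 to each regulator within a library (vertical axis), relative to the mean of the EYFP libraries, for 4 EYFP (blue circles) and 3 ATG7 libraries (red squares). The ATG7 points lie above all EYFP points for 9 regulators and overlap them for Trib3.

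The genes whose level followed each branch's transcription factor most closely were found by Pearson's r of log2 CPM over the 7 libraries, among 15048 genes with a mean CPM of at least 1. For Xbp1 they were Wdr55 (r = 0.988), Hist2h2be (0.983) and Gm32552 (0.962). For Atf4 they were Slc52a2 (0.988), Usp28 (0.970) and Nkiras2 (0.969), and for Atf6 Ctbs (0.993), Sumf2 (0.986) and Gm26964 (0.977). No gene of the 4 pathway lists was among these 9, and the highest of so many r values over 7 libraries is a description only.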

How the data were processed

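The authors deposited raw counts per Ensembl gene for 7 libraries. The submitters' processing notes name fastp 0.20.1, HISAT2 2.0.5, featureCounts and the builds mm10 and GRCm38. The annotation, the strand setting and the handling of shared reads are not given in the sources used here. Columns were matched to libraries by label, and groups were taken from titles. Symbols and positions came from GENCODE M21 (GRCm38).

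R 4.3.3 and edgeR 4.0.16 were used to fit all genes together (quasi-likelihood F-test), with TMM factors, filterByExpr, a robust dispersion and no covariate; adjusted p-values (Benjamini-Hochberg, two-sided) cover the 19199 genes tested. SE is the absolute log2 fold change over the square root of F. Alternatives used DESeq2 1.42.0, limma 3.58.1, other scalings and filters, covariates and left-out libraries. Library totals set a floor of 3 counts at 0.0546 to 0.0819 CPM, for counting error only. No replicate pair was within sampling noise (chi-square per degree of freedom 19.2 to 41.3). The fit was tested on simulated data. It called 42.1% of genes changed 1.5-fold, 67.2% of those changed 2-fold and 88.3% of those changed 3-fold. Unchanged genes made up 8.79%, 3.62% and 9.42% of the calls.

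The regulators, lists and tests were chosen with earlier results of these data known. The genes named are all regulators, the called genes of each pathway list up to the 3 with the smallest p (or the 1 with the smallest p), and the 3 most like each of Xbp1, Atf4 and Atf6; others were chosen after their values were seen. Of the genes in the marker lists, 1 is not reported here.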

Additional observations from a re-analysis of the deposited data

How the results depend on the processing

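Over 17 alternatives, 0 of the 10 regulators were called in any. Of their log2 fold changes 153 kept their direction and 17, none of them called, changed it. With the choroid plexus score as covariate Ern1 was at -0.0479, Dnajb9 at 0.0451, Ddit3 at -0.0191 and Atf6 at -0.0191, and with the dissociation score Dnajb9 was at 0.0336. Trib3 moved from 0.12 to 0.77 with the choroid plexus score. When 1 library was left out, the log2 fold change ran from -0.0141 to 0.0512 for Ern1, -0.0745 to 0.0552 for Dnajb9, -0.0790 to 0.00137 for Eif2ak3, -0.106 to 0.0244 for Atf4, -0.0145 to 0.103 for Ddit3, -0.0281 to 0.470 for Trib3 and -0.00594 to 0.0731 for Atf6. The replicate numbers did not pair the libraries (correlations of deviations -0.0609, -0.182 and 0.0664). The fit with the replicate block called 0 genes of all tested and 0 of the 73 pathway genes, against 145 and 6 without it, at log2 fold changes of 0.61 for Sdf2l1, 0.57 for Manf, 0.53 for Hspa5, 0.48 for Hyou1, 0.45 for Creld2 and 0.56 for Eif2ak2. All genes called numbered 297 with no filter, 572 with DESeq2, 10 with the choroid plexus score, 57 with the dissociation score and 28 to 277 with 1 library left out. Pathway genes called numbered 10 with no filter, 13 with DESeq2, 1 with the choroid plexus score, 2 with the dissociation score (log2 fold changes 0.74 for Sdf2l1, 0.68 for Manf, 0.61 for Hspa5, 0.57 for Creld2, 0.52 for Hyou1 and 0.66 for Eif2ak2, none smaller than without it) and 0 to 6 with 1 library left out. The share of called genes that were higher was 132 of 145 with edgeR, 234 of 297 with no filter 404 of 572 with DESeq2 and 8 of 10 with the choroid plexus score. The causes were not tested.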
